A study of Bos taurus with 6 samples.

Results

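Lipid droplets are the stores in which a cell keeps triglyceride, and bovine oocytes and embryos are known for holding many of them. RNA levels of 10 genes of lipid droplets and of triglyceride turnover were examined in bovine blastocysts, namely PLIN2, PLIN3, FITM2, HILPDA, DGAT1, DGAT2, ABHD5, PNPLA2, LIPE and MGLL. The genes were chosen by name for their known roles, with earlier results of these data known, and each of the 10 symbols matched 1 row among the 36075 genes of the deposited table. Blastocysts grown from slaughterhouse oocytes that were matured in vitro for 22 h with 1e-07 mol/L melatonin (MT) were compared with blastocysts whose oocytes matured without it. Each group had 3 libraries, 3 blastocysts were pooled for each library, and each group drew on 3 in vitro production runs. According to the paper, the oocytes of each run were pooled and divided at random among the treatments. Melatonin was present only during maturation of the oocyte, whereas RNA was measured after fertilization and culture to the blastocyst stage. Neither the breed nor the sex of the embryos, nor the age of the ovary donors, is given for these libraries in the sources used here.

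Triglyceride is made by adding a fatty acid to diacylglycerol, a step carried out by the enzymes encoded by DGAT1 and DGAT2. FITM2 helps new droplets bud from the endoplasmic reticulum, and perilipins such as PLIN2 and PLIN3 then coat the droplet surface. Stored fat is broken down in order by 3 lipases. PNPLA2 encodes adipose triglyceride lipase, which starts the breakdown with ABHD5 as its coactivator and with HILPDA, a hypoxia-induced protein, as an inhibitor. LIPE encodes hormone-sensitive lipase, which acts on diacylglycerol, and MGLL encodes the lipase that cleaves monoacylglycerol.

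Levels are given in TPM (transcripts per 1000000 transcripts of a library, after scaling to gene length), so that levels of different genes can be compared within a library. TPM retains no read counts, so the reads behind a value cannot be derived from it. Sequencing depth was not analysed here, and no counting error is given. The control libraries listed 8854 to 8953 genes above 0, and the MT-treated libraries listed 14372 to 14408. Of the 11953 genes with at least 1 TPM in at least 3 libraries, which are called tested genes here, 4037 stood at 0 in all control libraries and above 0 in all MT-treated libraries (33.8%). A value of 0 is therefore written as listed at 0, and no fold is given against a group at or near 0. POU5F1, a pluripotency factor, had 188 to 191 TPM in control and 191 to 194 TPM in MT-treated libraries. All 7 trophectoderm markers were above 0 in MT-treated libraries, and 6 of them, all but CDX2, were above 0 in control libraries. The keratin genes KRT8 and KRT18 had at least 2726 TPM in every library. Of the 7, 5 were called higher and 2 lower in MT-treated libraries, against 61.6% and 34.1% of all tested genes. TFAP2A, 1 of the lower genes, had 31.5 to 38.9 TPM in control and 0.46 to 0.55 TPM in MT-treated libraries. CDX2 and TFAP2A each counted as tested through 1 group only. CDX2 and NANOG, a gene of the inner cell mass, were listed at 0 in every control library, although the libraries are labelled as blastocysts, and 3 of 4 hypoblast markers were at 0 in every control library. The summed level of the 4 hypoblast markers was 0.20 to 0.44 TPM in control and 53.5 to 57.5 TPM in MT-treated libraries. The 6 listed cumulus and granulosa markers summed to 17.2 to 19.2 TPM in control and 15.0 to 17.1 TPM in MT-treated libraries, nearly all of it from FSHR. The 7 oocyte transcripts summed to 0 in control and to 0.76 to 1.09 TPM in MT-treated libraries. The part of such cell type differences in the results for lipid genes was not tested. In pooled whole embryos, fewer cells of a type and less RNA per cell cannot be told apart.

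Of the 10 genes, 7 were above 0 in at least 1 library and 6 were tested. In MT-treated blastocysts 4 of these were higher (PLIN2, PLIN3, PNPLA2 and ABHD5) and 2 were lower (DGAT1 and MGLL) than in control with an adjusted p-value below 0.05 (limma, Benjamini-Hochberg over all tested genes). Among all tested genes, 61.6% were higher and 34.1% were lower by the same rule, so the split of the 6 genes was close to that of the table as a whole. PLIN2 and ABHD5 reached the level required for testing only through the MT-treated libraries and so had to differ, and they are described by their values without a p-value. For all 6, no MT-treated value fell within the control values, which held for 96.1% of tested genes. FITM2 was detected only in MT-treated libraries, under the level required for testing. DGAT2, LIPE and HILPDA were listed at 0 in all 6 libraries. The summed level of the 10 genes was 99.9, 98.1 and 100.3 TPM across control libraries and 158, 156 and 160.1 TPM across MT-treated libraries, and the groups did not overlap.

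**Figure D1:**
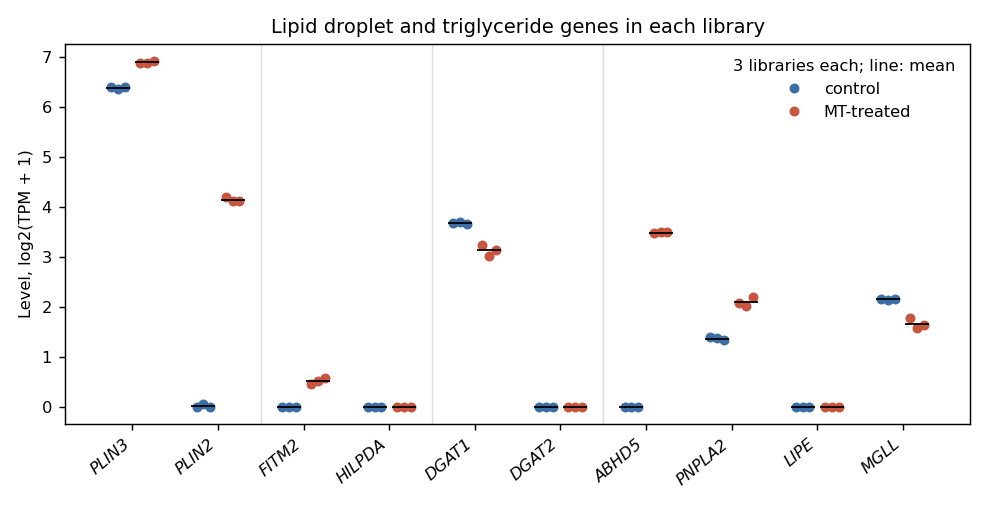
Level of each of the 10 genes on the log2(TPM + 1) scale, with 1 point for each of 3 control (blue) and 3 MT-treated (red) libraries and a line at the group mean. PLIN3 is the most abundant gene in every library, PLIN2 and ABHD5 are at or near 0 in control libraries only, and DGAT2, LIPE and HILPDA lie at 0 throughout.

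PLIN3 (ENSBTAG00000011805), a perilipin that moves between the cytosol and young droplets, was the most abundant of the 10 genes in both groups. Its level was 83.0, 81.1 and 83.7 TPM across control libraries and 117, 117 and 119.7 TPM across MT-treated libraries. All MT-treated values exceeded all control values, and the mean was 1.42-fold higher, 82.6 ± 1.33 against 118 ± 1.76 TPM (SD, n = 3 each). On the log2(TPM + 1) scale the difference was 0.50 (standard error 0.02, adjusted p = 9.82e-07 by limma). Among the 7352 genes above 0 in all 6 libraries, PLIN3 ranked at percentiles 76.3 to 76.9 in control and 85.5 to 85.8 in MT-treated libraries.

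PLIN2 (ENSBTAG00000005718), the perilipin that coats droplets in most tissues and is widely used as a droplet marker, was listed at 0, 0.04 and 0 TPM in the control libraries. In the MT-treated libraries it had 17.3, 16.3 and 16.2 TPM. The MT-treated values lay close together, with a coefficient of variation of 3.43%, and far from the control values. PLIN2 made up 12.9%, 12.3% and 12.0% of the summed PLIN2 and PLIN3 level across MT-treated libraries, against at most 0.0493% in control. The PLIN3 level was thus 6.76 to 7.37 times that of PLIN2 in MT-treated libraries. A change from near 0 was common in this table. Of the 3273 genes with a mean of 8 to 20 TPM in MT-treated libraries, a range that holds PLIN2 and ABHD5 and was chosen after their values were seen, 52.3% had less than 0.1 TPM in every control library and 46.5% were listed at 0 in all of them.

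FITM2 (ENSBTAG00000020030), which promotes droplet budding, was listed at 0 in all control libraries and had 0.36, 0.42 and 0.48 TPM across MT-treated libraries. The groups did not overlap, but the levels were the lowest of any detected gene of the 10. Without the filter on low values it would enter the fit only through the MT-treated libraries, so no p-value is given for it. HILPDA (ENSBTAG00000063936) was listed at 0 in every library of both groups. With no counts in the file, no upper limit can be set on its level.

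DGAT1 (ENSBTAG00000026356), the diacylglycerol acyltransferase that can also re-esterify fatty acids released from stored fat, had 11.8, 12.0 and 11.6 TPM across control libraries and 8.42, 7.10 and 7.78 TPM across MT-treated libraries. Every MT-treated value was below every control value. The mean was 11.8 ± 0.201 TPM in control and 7.77 ± 0.660 TPM in MT-treated blastocysts (SD, n = 3 each), 1.52-fold higher in control. On the log2(TPM + 1) scale the difference was -0.55 (standard error 0.06, adjusted p = 0.000141 by limma). DGAT2 (ENSBTAG00000055742), an unrelated enzyme that catalyses the same reaction, was listed at 0 in all 6 libraries, so that DGAT1 was the only source of detected diacylglycerol acyltransferase transcript among these 2 genes.

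ABHD5 (ENSBTAG00000008416), the coactivator of adipose triglyceride lipase, was listed at 0 in each control library and had 10.1, 10.3 and 10.2 TPM across MT-treated libraries. The 3 MT-treated values differed little, with a coefficient of variation of 1.15%. PNPLA2 (ENSBTAG00000005144), the lipase that ABHD5 activates, had 1.61, 1.58 and 1.51 TPM across control libraries and 3.24, 3.06 and 3.59 TPM across MT-treated libraries. Levels were low in both groups and did not overlap between them, with means of 1.57 ± 0.0513 and 3.30 ± 0.270 TPM (SD, n = 3 each), a ratio of 2.10. The log2(TPM + 1) difference was 0.74 (standard error 0.05, adjusted p = 1.49e-05 by limma). In the MT-treated libraries the level of the coactivator was 3.10, 3.36 and 2.85 times that of the lipase, while in control only the lipase was above 0.

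LIPE (ENSBTAG00000038321) was listed at 0 in all libraries. MGLL (ENSBTAG00000018248), which completes the breakdown, had 3.46, 3.38 and 3.48 TPM across control libraries and 2.42, 1.97 and 2.11 TPM across MT-treated libraries. All MT-treated values were lower, and the mean was 1.59-fold higher in control, 3.44 ± 0.0529 against 2.17 ± 0.230 TPM (SD, n = 3 each). The log2(TPM + 1) difference was -0.49 (standard error 0.06, adjusted p = 0.000213 by limma).

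The order of the levels differed between the groups. In every control library PLIN3 was followed by DGAT1, then MGLL and then PNPLA2, with PLIN2 at or near 0. In every MT-treated library the order was PLIN3, PLIN2, ABHD5, DGAT1, PNPLA2, MGLL and FITM2. Within each group, the 3 values of each of these detected genes lay apart from those of its neighbours in the order. PLIN2 was 2.05 to 2.29 times as abundant as DGAT1 in MT-treated libraries. PLIN3 made up 82.7% to 83.5% of the summed level of the 10 genes in control and 73.6% to 74.9% in MT-treated libraries, and the other genes together had 16.6 to 17.0 TPM in control and 39.1 to 41.8 TPM in MT-treated libraries.

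Ratios of 2 genes within a library do not change when all its TPM are multiplied by 1 factor, but they do change with quantile normalization, which is no such factor. They were taken for all 6 pairs of the 4 genes above 0 in every library, a choice made after the values were seen, because none of the pairs planned at first was above 0 throughout. MGLL was 2.15, 2.14 and 2.30 times as abundant as PNPLA2 across control libraries and 0.747, 0.644 and 0.588 times across MT-treated libraries. The monoacylglycerol lipase was thus the more abundant of this pair in each control library and the less abundant in each MT-treated library, a difference of -1.74 in the log2 ratio. DGAT1 was 7.34, 7.59 and 7.68 times as abundant as PNPLA2 in control and 2.60, 2.32 and 2.17 times in MT-treated libraries, a difference of -1.68 in the log2 ratio. PLIN3 was 6.76 to 7.22 times as abundant as DGAT1 in control and 13.8 to 16.4 times in MT-treated libraries. Against MGLL its ratio was 24.0 in each control library and 48.2 to 59.2 in MT-treated libraries. Against PNPLA2 it had ratios of 51.3 to 55.4 in control and 33.3 to 38.1 in MT-treated libraries. For these 5 pairs the groups did not overlap (exact two-sided permutation test, p = 0.1 each, the smallest value that 3 libraries against 3 allow, and 0.12 when adjusted over 6 pairs). In each of them except PLIN3 and PNPLA2, 1 gene was higher and the other lower without overlap. The separation of those ratios was therefore fixed by the single genes and is no further result.

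The pair of DGAT1 and MGLL showed no such separation, and the share of separated ratios over all gene pairs was not determined. Among single tested genes, 96.1% did not overlap between the groups. DGAT1 was 3.42, 3.55 and 3.33 times as abundant as MGLL in control and 3.48, 3.60 and 3.69 times in MT-treated libraries, and the ranges overlapped. The log2 ratio differed by 0.07 between the group means (exact two-sided permutation test, p = 0.2, also after adjustment), and between single libraries of the groups it differed by -0.03 to 0.15.

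**Figure D2:**
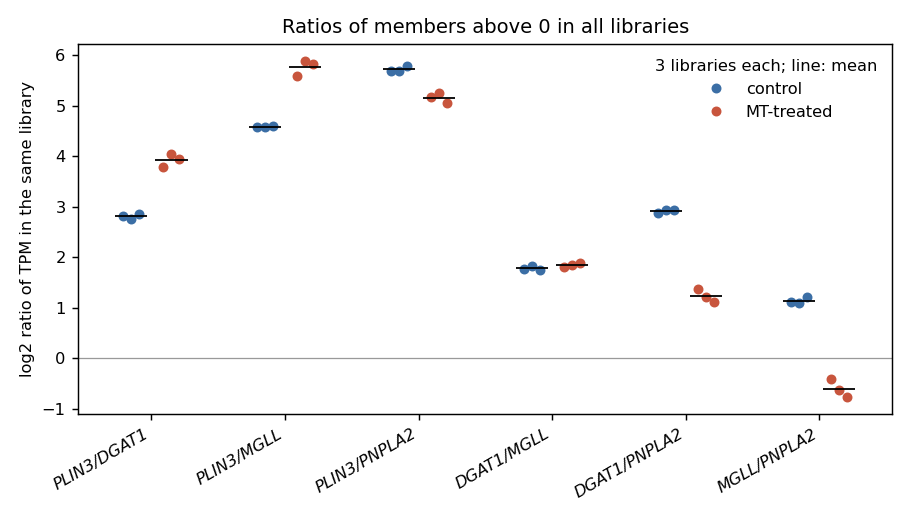
log2 ratio of the TPM of 2 genes in the same library, with 1 point for each of 3 control (blue) and 3 MT-treated (red) libraries and a line at the mean. The groups lie apart for 5 pairs and overlap for DGAT1/MGLL, and MGLL/PNPLA2 lies above 0 in control and below 0 in MT-treated libraries.

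The calls and sizes of the smaller differences depended on how libraries were put on a common scale, as did the direction of PNPLA2. Genes with at least 1 TPM in all libraries had a median on the log2(TPM + 1) scale that was lower by 0.48 in MT-treated than in control libraries, and centring each library on that median removes this shift. After centring, DGAT1 differed by -0.07 (adjusted p = 0.306 by limma) and MGLL by -0.01 (adjusted p = 0.863 by limma), and neither was called. PLIN3 then differed by 0.98 and PNPLA2 by 1.22, both still called. Quantile normalization, under which all libraries have 1 common distribution of values, turned the direction of PNPLA2 to -1.50 (adjusted p = 3.18e-07 by limma), while DGAT1 and MGLL differed by -2.38 and -2.19 and PLIN3 by 0.78. PLIN3 and PNPLA2 then differed in the direction opposite to that of their ratio in the deposited TPM. PLIN2 and ABHD5, at or near 0 in control, were higher under each scaling, as the filter on low values largely fixes. In rank among the genes above 0 in all libraries, which needs no scaling, PNPLA2 lay at percentiles 16.0 to 16.5 in control and 15.7 to 16.9 in MT-treated libraries, which overlap. DGAT1 lay at 33.5 to 34.1 against 25.0 to 28.1, and MGLL at 21.0 to 21.3 against 12.6 to 14.0.

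**Figure D3:**
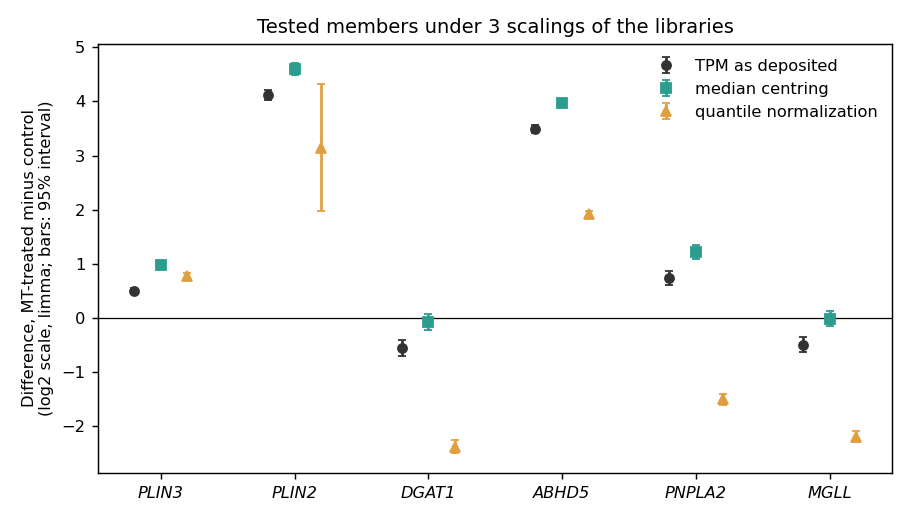
Difference between MT-treated and control blastocysts on the log2 scale for the 6 tested genes, from the limma fit of TPM as deposited (circles), after median centring (squares) and after quantile normalization (triangles), with bars for the 95% interval. PLIN3, PLIN2 and ABHD5 stay above 0, DGAT1 and MGLL are close to 0 after centring, and PNPLA2 falls to -1.50 with quantile normalization. For PLIN2 and ABHD5, at or near 0 in control, the size depends on the pseudocount.

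Other genes of the droplet and of fat supply were examined as 5 lists written from general knowledge. The median of each list stands beside the median log2(TPM + 1) difference of all tested genes, which was 1.12, and of the 6925 tested genes above 0 in all libraries, which was -0.19. Of these 6925 genes, 40.6% were called higher and 52.3% lower, against 61.6% and 34.1% of all tested genes, and counts in each list are to be read against these shares. No set test was made. Medians that include genes at or near 0 in a group depend on the pseudocount. Genes under 1 TPM in every library of a group reached the level required for testing only through the other group. Such genes had to differ, and their calls are no separate result.

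Of 14 listed genes of droplet coats and droplet assembly, 6 were at 0 in all libraries, among them the perilipin genes PLIN1, PLIN4 and PLIN5 that are known from adipose, muscle and heart tissue. PLIN2 and PLIN3 were therefore the only perilipins above 0. Of 7 tested genes, 5 were higher, 1 was lower and AUP1 was not called (adjusted p = 0.124 by limma), with a list median of 1.11. Over the 4 tested genes above 0 in all libraries, 2 were higher and 1 lower, and the median was 0.17. BSCL2, which encodes seipin of the droplet assembly site, had 23.8, 23.4 and 23.3 TPM across control libraries and 52.7, 52.2 and 50.7 TPM across MT-treated libraries (adjusted p = 4.62e-08 by limma). LDAF1, the partner of seipin, was listed at 0 in all control libraries and had 10.6, 10.3 and 11.5 TPM across MT-treated libraries. HSD17B13, a droplet protein best known from liver, had at most 0.02 TPM in control and 7.25, 6.89 and 7.46 TPM in MT-treated libraries. It reached the level required for testing only through the MT-treated libraries, and it was no longer called after quantile normalization (adjusted p = 0.270 by limma). RAB18, a small GTPase of the droplet surface, was the 1 lower gene, with 94.1, 93.2 and 94.6 TPM in control and 61.2, 62.1 and 58.8 TPM in MT-treated libraries.

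The supply of glycerol phosphate and the acylation and phosphatase steps that lead to diacylglycerol, from glycerol phosphate or from monoacylglycerol, were represented by 17 genes under 19 identifiers, 13 of them tested. There were 6 higher and 7 lower genes, with a list median of -0.32. Of the 6 higher genes, 5 had 0 TPM in every control library. The 8 tested genes above 0 in all libraries held 7 of the lower genes and a median of -0.50. GPAM, the mitochondrial acyltransferase that starts the glycerol phosphate route, was listed at 0 in control and had 17.7, 12.7 and 14.9 TPM in MT-treated libraries. LPIN3, a phosphatidate phosphatase, was also listed at 0 in control and had 10.6, 10.2 and 10.6 TPM in MT-treated libraries. AGPAT3, an acyltransferase of the second step, had 85.9, 84.4 and 86.4 TPM in control and 1.33, 1.64 and 1.38 TPM in MT-treated libraries (adjusted p = 1.55e-09 by limma). AGPAT4 of the same family had 94.7, 93.9 and 95.8 TPM in control and 39.5, 36.0 and 39.3 TPM in MT-treated libraries. After median centring this list had 8 higher and 3 lower genes, so that its balance of directions turned with the scaling. Centring moved all genes up alike. Higher genes then made up 73.5% of calls among all tested genes, against 64.4% for TPM as deposited.

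Among 15 listed regulators of lipolysis and other lipases, 8 were at 0 in all libraries and 4 were tested, 1 of them higher and 3 lower. Their median difference was -0.68, and it was -0.79 over the 3 genes above 0 in all libraries, all of them lower. PNPLA4, a lipase of the same family as PNPLA2, was listed at 0 in control and had 29.2, 32.1 and 32.6 TPM in MT-treated libraries. ABHD6 and ABHD12, which like MGLL hydrolyse monoacylglycerol, were both lower. ABHD6 had 35.2, 33.8 and 33.9 TPM in control and 0.34, 0.47 and 0.37 TPM in MT-treated libraries. ABHD12 had 302, 298 and 301 TPM in control and 172, 172 and 176 TPM in MT-treated libraries, so that its level in each library was higher than that of MGLL. ABHD6 reached the level required for testing only through the control libraries and so had to differ. After median centring ABHD12 was still called lower. Both genes were named as the lowest called genes of this list.

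For fatty acid uptake, binding and activation, 19 genes were listed and 11 tested, of which 5 were higher and 5 lower and DBI was not called (adjusted p = 0.137 by limma), with a median difference of -0.03. Over the 7 tested genes above 0 in all libraries, 2 were higher and 4 lower, and the median was -0.27. SLC27A6, a fatty acid transporter, had 0.12, 0 and 0 TPM in control and 20.8, 23.6 and 19.5 TPM in MT-treated libraries. SLC27A3 of the same family had 10.6, 10.9 and 11.2 TPM in control and was listed at 0 in each MT-treated library. The acyl-CoA synthetase genes also moved in both directions. ACSL1 was listed at 0 in control and had 11.9, 13.2 and 12.9 TPM in MT-treated libraries. ACSL4 had 64.7, 61.7 and 60.5 TPM in control and 28.9, 29.7 and 25.5 TPM in MT-treated libraries (adjusted p = 3.91e-06 by limma). After median centring the list had 8 higher and 3 lower genes, near the balance of all tested genes, with 8412 higher and 3038 lower.

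Of 15 listed transcription factors and coactivators of lipid metabolism and hypoxia, 11 were tested, with 6 higher, 5 lower and a median difference of 0.66. Over the 7 tested genes above 0 in all libraries, 2 were higher and 5 lower, and the median had the opposite sign, -1.26. PPARD, a nuclear receptor for fatty acids, was listed at 0 in control and had 18.5, 18.9 and 17.7 TPM in MT-treated libraries. PPARGC1B, a coactivator of such receptors, had 18.2, 18.6 and 18.8 TPM in control and 0.72, 0.81 and 0.74 TPM in MT-treated libraries. CEBPB, a factor known from fat cell differentiation, had 12.2, 12.2 and 13.5 TPM in control and 2.31, 2.95 and 2.77 TPM in MT-treated libraries. EPAS1, the hypoxia-inducible factor 2 alpha gene, had 0.59, 0.65 and 0.61 TPM in control and 38.8, 34.1 and 46.0 TPM in MT-treated libraries. HIF1A, named after its values were seen, was listed at 0 in control and had 7.48, 7.22 and 7.20 TPM in MT-treated libraries. HILPDA, a known target of these factors, was listed at 0 in the same libraries, and a link between these levels was not tested.

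**Figure D4:**
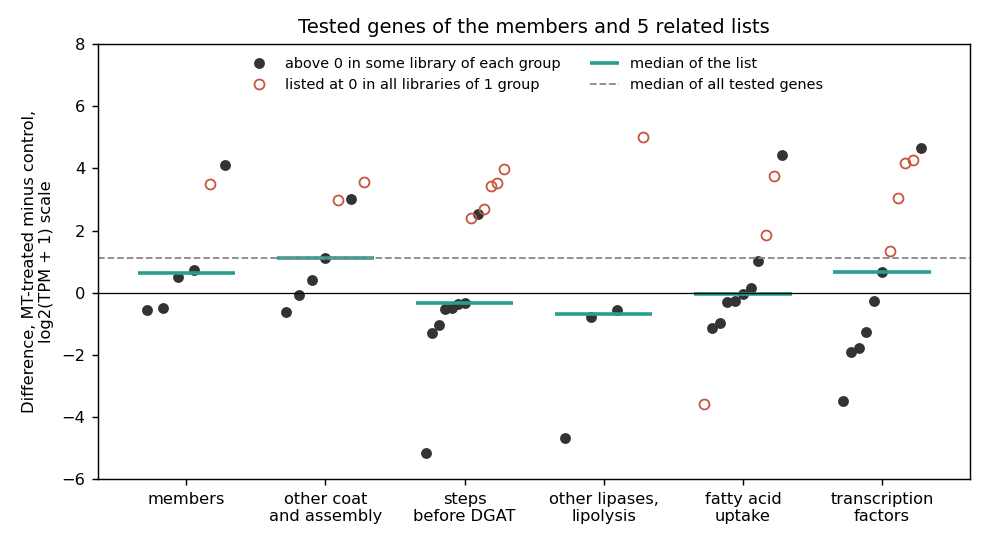
Difference between MT-treated and control blastocysts on the log2(TPM + 1) scale for the tested genes among the 10 lipid droplet and triglyceride genes (members) and in 5 related lists, with filled points for genes above 0 in some library of each group, open red points for genes listed at 0 in all libraries of 1 group, green lines for list medians and a dashed line for the median of all tested genes, 1.12. Nearly all open points lie above 0, and SLC27A3 is the open point below 0.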

How the data were processed

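RNA of 6 libraries was measured, 3 control and 3 MT-treated. According to the paper, reads were checked with fastp and FastQC, aligned with STAR 2.7.9a and counted with featureCounts of Subread 1.6.3. The paper names the assembly ARS-UCD1.3 and Smart-seq2, the labels ARS-UCD1.2 and a TruSeq kit, so build and chemistry are uncertain, and no coordinates are given. The authors deposited TPM with 2 decimals, and how counts became TPM is not given in the sources used here.

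All 6 columns were matched to samples by the labels, and MT concentration, pool size and runs came from the paper. The 10 symbols were matched exactly, and all are also RefSeq symbols (ARS-UCD2.0). The study's DESeq2 test needs counts, so log2(TPM + 1) was fitted with lmFit and eBayes with trend (limma 3.58.1, R 4.3.3) for genes with at least 1 TPM in at least 3 libraries, without a block. Benjamini-Hochberg adjustment covered all 11953 genes, with a threshold of 0.05, and the fit was tested on simulated data. Ratios were compared by exact permutation tests with Python 3.11.15. The limma p-values set each group difference against the spread between libraries of the same group, estimated with information from all tested genes.

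The genes and lists were chosen with earlier results of these data known. Named were the 10 genes, PLIN1, PLIN4, PLIN5, BSCL2 and, from each list, up to 2 highest and 2 lowest called genes without overlap. AUP1, DBI, FAF2, HIF1A and the cell type markers were named in addition. A few symbols of the lists were not analysed here.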

Additional observations from a re-analysis of the deposited data

How the results depend on the processing

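Sequencing depth was not analysed here, so low values such as those of FITM2 are given without a counting error. The higher and lower calls numbered 7367 and 4071 as reported, and higher genes made up 64.4% of calls. Restricted to genes above 0 in all 6 libraries, 2814 genes were higher (43.7% of calls), and of the lipid genes 2 of the 10, 2 coat and assembly genes, 1 gene of the steps before DGAT, 0 genes of the lipolysis list, 2 uptake genes and 2 transcription factors were higher, because genes with a 0 in any library, such as PLIN2, were left out. In that fit the 3 tested genes of the lipolysis list (ABHD6, ABHD12 and FAF2) were lower. Median centring left 0 of the 10 genes lower by limma (also 0 at an unadjusted p under 0.05), 3 lower genes in the steps before DGAT, and 8 higher and 3 lower uptake genes, and raised the share of higher calls to 73.5%. A minimum of 5 TPM left 1 of the 10 genes lower, since MGLL was then not tested, and no filter gave 2 higher genes of the lipolysis list. Quantile normalization reversed PNPLA2 to a log2 difference of -1.50. The cause of the changes with scaling was not tested. Other alternatives (a pseudocount of 0.1, totals rescaled to 1000000 TPM, no trend and each library left out) changed no call of the 6 tested genes. With each library left out, their log2 differences ranged from -0.60 to -0.49 for DGAT1, from -0.55 to -0.45 for MGLL, from 0.69 to 0.78 for PNPLA2 and from 0.49 to 0.51 for PLIN3. According to the paper, oocytes of each production run were pooled and divided at random among the groups, which were treated concurrently. The main fit and the permutation tests took no account of runs. The sources used here do not say whether same-numbered libraries came from the same production run. The correlations of their deviations from the group means were 0.119, 0.0438 and 0.160 over 2992 genes, each library correlated best with its own number, and a replicate block gave 7379 higher and 4082 lower genes and changed no call of the 10 genes.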
